A study of Mus musculus with 12 samples.

Results

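The genes described here make and remodel the extracellular matrix of fat: matrix metalloproteinases (Mmp), their tissue inhibitors (Timp), the ADAMTS proteases, and the enzymes that crosslink collagen and elastin or prepare them for it. Members were taken by symbol: every gene whose symbol is Mmp, Timp or Adamts followed by a digit, together with Lox, Loxl1 to Loxl4, Plod1 to Plod3 and Tgm2. The rule found 55 of the 25232 genes listed: 23 Mmp, 19 Adamts and 4 Timp genes, 5 lysyl oxidases, 3 lysyl hydroxylases and 1 transglutaminase. The RNA came from eWAT, the white fat pad that lies along the epididymis in the abdomen of male mice, here of strain C57BL/6. HFD_TKO mice carried the genotype labelled TET KO and ate a high-fat diet, HFD_WT mice were wild type on that diet, ND_TKO mice were TET KO on a normal diet, and ND_WT mice were wild type on the normal diet. Each of the 4 groups held 3 libraries, described as biological replicates in the labels. The series title places the TET ablation in adipocytes, while the driver of the deletion, the deleted exons and the age of the mice are not stated in the labels or files used here.

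Matrix metalloproteinases are zinc proteases, made as inactive precursors and secreted or held at the membrane, that cut collagens, elastin and other matrix proteins once activated. TIMP proteins bind and block them, and ADAMTS proteases trim proteoglycans and procollagens. Lysyl oxidases and transglutaminase join matrix fibres by covalent bonds, and lysyl hydroxylases prepare the lysines of collagen for this. As fat expands, adipocytes enlarge inside a collagen mesh that these enzymes loosen, rebuild and stiffen, and macrophages, stromal cells and adipocytes each contribute some of them.

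Values are CPM, the reads of a gene scaled to a fixed library total, taken from libraries of 20973140 to 25606629 reads. In such libraries 3 reads, the limit that a count of 0 allows, correspond to 0.117 to 0.143 CPM, which covers counting error only. A gene was tested where at least 3 libraries held 0.5 CPM or more (15597 genes), with limma on log2(CPM + 1) in 1 fit of all 12 libraries. A change was called at a Benjamini-Hochberg adjusted p under 0.05 over all tested genes, and every p below is of this kind unless another tool is named. Changes are log2 differences on the log2(CPM + 1) scale, HFD_TKO or ND_TKO minus the WT group on the same diet, or HFD minus ND, with their standard error (SE). Where an alternative or a left-out library ended or made the call of a change printed here, the adjusted p there is given first, and then the range over all alternatives run. The replicate number as a block is named here for the diet effect in TKO and in the closing section for the other contrasts. Means are given ± SD (n = 3). The tissue was sequenced whole, so fewer cells of a type and less RNA per cell cannot be told apart. The 7 adipocyte markers, led by Adipoq, summed to 10149 to 11501 CPM in HFD_TKO, 4882 to 5059.9 CPM in HFD_WT, 14823 to 17089 CPM in ND_TKO and 13814 to 14242 CPM in ND_WT, and none of them lacked reads. Tet1 averaged 2.26 ± 0.732 CPM in HFD_TKO, against 0.899 ± 0.0845 CPM in HFD_WT, and 2.66 ± 0.389 CPM in ND_TKO, against 0.905 ± 0.537 CPM in ND_WT. Tet2 averaged 11.2 ± 1.97 CPM in HFD_TKO, against 15.9 ± 2.08 CPM in HFD_WT, and 18.1 ± 4.66 CPM in ND_TKO, against 18.9 ± 4.43 CPM in ND_WT, and Tet3 60.8 ± 1.78 CPM in HFD_TKO, against 68.9 ± 3.80 CPM in HFD_WT, and 45.9 ± 5.07 CPM in ND_TKO, against 39.1 ± 3.31 CPM in ND_WT. Tet1 was called higher in the libraries labelled TKO on HFD (0.76, adjusted p = 0.010) and on ND (0.97, adjusted p = 0.0185), alternatives not being run for it. None of the 3 was called lower in them on either diet, which does not check the labels where reads of undeleted exons and other cells are counted too. ND_WT replicate 3 stood apart from ND_WT replicates 1 and 2 in several members, and calls printed here that rest on it are given with and without it.

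A cluster of Mmp genes on chromosome 9 is shown first, because the largest changes among all members fell there and its promoters could be read. In the RefSeq annotation of GRCm38.p6, 10 members lie between bases 7272514 and 7699585 of chromosome 9: Mmp13, Mmp12, Mmp1b, Mmp3, Mmp1a, Mmp10, Mmp8, Mmp27, Mmp20 and Mmp7. RefSeq promoters (250 bases before to 50 after a start) were found for 35 of the 55 members. The motif TGANTCA, the form of the classical AP-1 element, was searched on both strands and stood in the promoters of 8 of these 10 genes, in 0 of the 25 other members with a promoter, and in 7.81% of all 32851 promoters. The motif TATAAA, searched on both strands, stood in 9 of the 10, in 3 of the 25 others and in 13.6% of all promoters. Below are 160 bases of 4 of these promoters, from 110 bases before to 50 bases after the annotated start, all on the plus strand of GRCm38.p6. Capitals mark TGANTCA and a forward TATAAA.
Mmp12 (chr9:7347264-7347423): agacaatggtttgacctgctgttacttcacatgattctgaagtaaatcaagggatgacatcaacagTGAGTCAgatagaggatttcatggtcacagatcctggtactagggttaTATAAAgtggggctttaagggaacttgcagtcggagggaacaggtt
Mmp3 (chr9:7445712-7445871): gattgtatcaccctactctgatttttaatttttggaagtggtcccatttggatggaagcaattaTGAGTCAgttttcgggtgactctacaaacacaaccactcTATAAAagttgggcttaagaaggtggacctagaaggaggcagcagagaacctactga
Mmp13 (chr9:7272404-7272563): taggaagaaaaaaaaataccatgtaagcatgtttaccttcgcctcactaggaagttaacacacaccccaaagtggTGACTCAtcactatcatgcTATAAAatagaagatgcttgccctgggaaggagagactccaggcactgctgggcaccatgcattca
Mmp20 (chr9:7628121-7628280): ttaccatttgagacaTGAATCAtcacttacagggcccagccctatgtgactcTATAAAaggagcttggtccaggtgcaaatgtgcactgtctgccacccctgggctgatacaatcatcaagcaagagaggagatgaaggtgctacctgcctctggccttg
Mmp12 has 2 starts in the table, and the other holds neither stretch shown in capitals. Mmp12, Mmp3 and Mmp13 are shown because all 3 were far higher in HFD_WT fat than in any other group, and Mmp20, which encodes the enamel protease enamelysin, because it carries both motifs and had no read in any library. Mmp8 and Mmp27, which lack TGANTCA in these promoters, also averaged highest in HFD_WT. Mmp7 carries TGANTCA, and no contrast of Mmp7 was called. A match describes these letters only, and says nothing of a factor bound there.

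Of the 55 members, 46 were tested. Mmp1a, Mmp1b, Mmp10, Mmp16, Mmp20, Mmp21, Adamts13 and Adamts20 averaged below 0.5 CPM in all 4 groups. Mmp8, the neutrophil collagenase, averaged 0.606 CPM in HFD_WT and at most 0.0923 CPM in the other groups, and was not tested. Of the tested members, 38 reached 0.5 CPM in every library, and none passed the filter through 1 group alone. At least 1 of the 5 contrasts was called for 37 members. The same count was not made over all tested genes, of which 58.1% were called in the diet effect in WT alone.

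On the high-fat diet 26 of the 46 tested members were called between HFD_TKO and HFD_WT, 7 higher and 19 lower in HFD_TKO. The members called made up 56.5%, against 46.7% of all tested genes (15.2% of all tested genes higher and 31.6% lower). A change of at least 1 was called for 12 members, or 26.1%, 3 higher and 9 lower, against 11.9% of all tested genes (1.87% higher and 10.1% lower). The median change was -0.21 over the members and -0.10 over all tested genes. Between ND_TKO and ND_WT 5 members were called, against 5.7% of all tested genes (2.16% higher and 3.54% lower): Adamts9 and Plod2 were higher and Mmp14, Mmp23 and Timp2 lower in ND_TKO. The share of 10.9% rests on few calls and shifted with the libraries used: without ND_WT replicate 3, 9 members were called, 4 of them among these 5, beside 11.9% of all tested genes. The count was 2 without ND_TKO replicate 3 (2.79% of all tested genes) or ND_WT replicate 1 (2.24%). It was 3 without HFD_TKO replicate 2 or 3, ND_WT replicate 2 or any 1 HFD_WT library (3.24% to 4.73% of all tested genes).

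Between diets, 32 members were called in wild type, 28 higher and 4 lower in HFD_WT than in ND_WT, which is 69.6%, against 58.1% of all tested genes (37.8% higher and 20.3% lower). The 4 lower members were Mmp24, Mmp28, Timp4 and Adamts8. In TKO fat 15 members were called, 14 higher and 1 (Mmp11) lower in HFD_TKO than in ND_TKO, against 22.1% of all tested genes (16.2% higher and 5.9% lower). The count in TKO was 9 without HFD_TKO replicate 3 (14.2% of all tested genes) and 8 without ND_TKO replicate 3 (11%). The median diet change of the members was 0.61 in WT and 0.21 in TKO, beside 0.13 and 0.07 over all tested genes. The TKO effect on HFD differed from that on ND (genotype by diet interaction) for 22 members, 5 more positive and 17 more negative on HFD, against 28.7% of all tested genes (9.94% more positive and 18.8% more negative). The contrasts share libraries: the TKO effect on HFD and the diet effect in WT both use HFD_WT, and the 2 diet effects differ by the same amount as the 2 TKO effects. With trimmed mean (TMM) scaling in place of plain CPM, the median of all genes moved by 0.11 in the TKO effect on HFD and by -0.14 in the diet effect in WT. That scaling called 25 members on HFD (9 higher, 16 lower, 23 of them as before) and 31 in WT between diets (25 higher, 6 lower, 29 as before). Of all tested genes it called 3541 higher and 3853 lower in HFD_TKO than in HFD_WT, against 2365 higher and 4923 lower with CPM. In the diet effect in WT it called 4550 higher and 4395 lower, against 5892 higher and 3173 lower with CPM. With edgeR the diet effect in WT was called for 25 members higher and 8 lower, beside 4442 higher and 4447 lower of all tested genes.

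**Figure D1:**
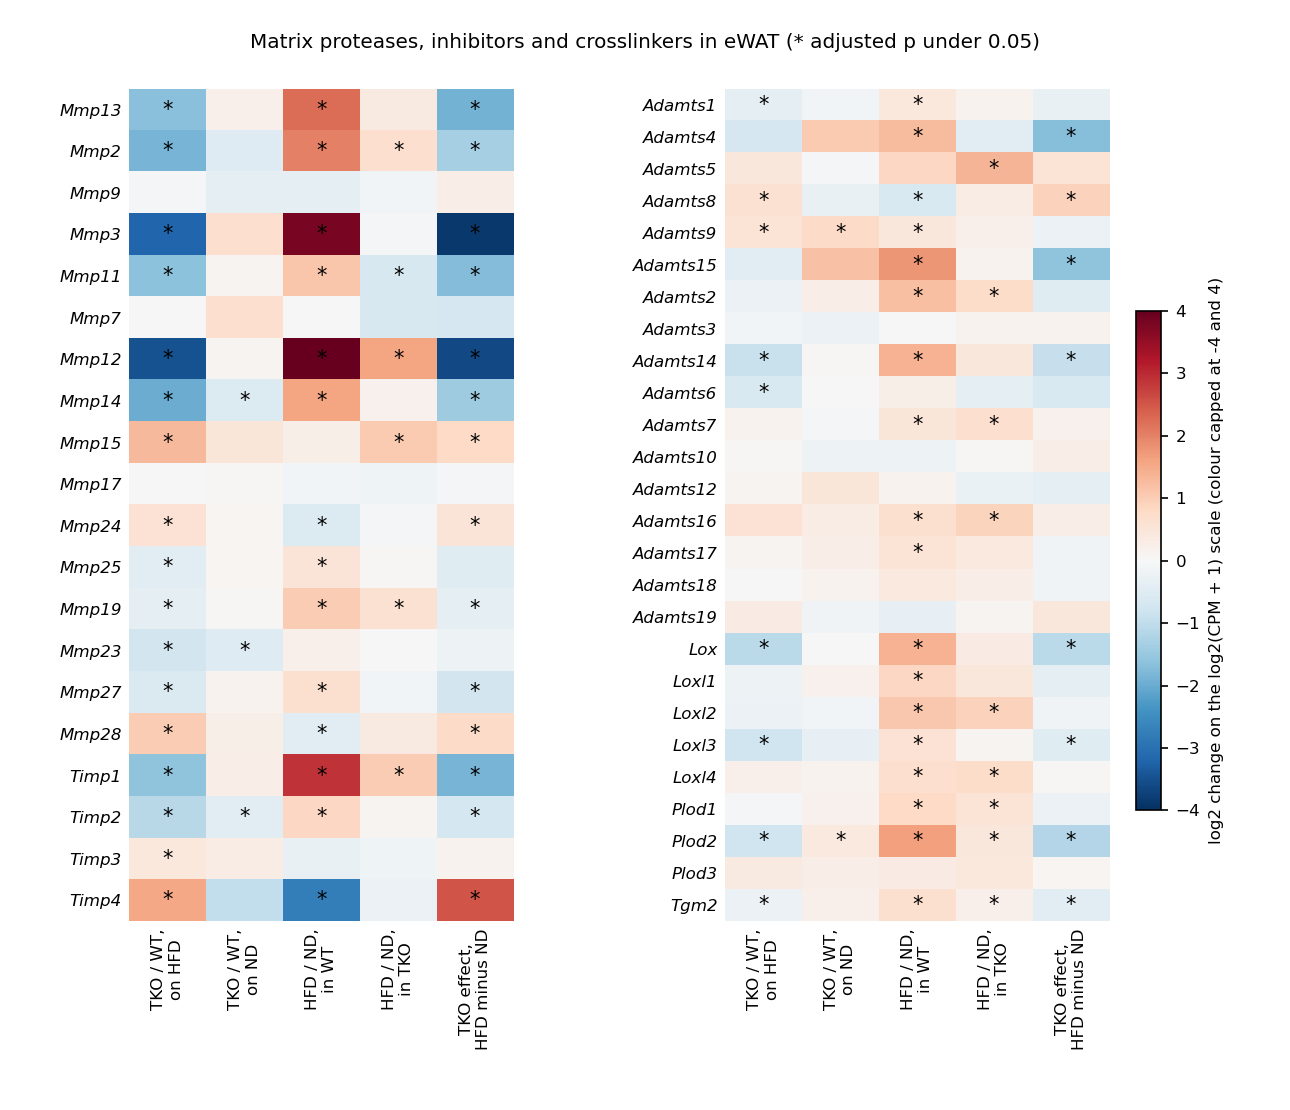
Log2 changes of the 46 tested members (rows, ordered by role) in the 5 contrasts (columns), with colour from blue (negative) to red (positive) capped at 4 in either direction and an asterisk at an adjusted p under 0.05 in limma. Mmp12 and Mmp3 are deepest in blue in the first column and in red in the third, and Timp4 is the reverse. Few asterisks stand in the second column, TKO against WT on the normal diet.

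Matrix metalloproteinases carried the largest changes. Summed over the 23 Mmp genes, the level was 509.7, 519 and 564 CPM in HFD_TKO, against 1783, 1892 and 1479 CPM in HFD_WT. It was 409, 380.3 and 342 CPM in ND_TKO, against 409, 439.6 and 385 CPM in ND_WT. The HFD_WT libraries thus stood apart from the 9 others. Mmp12 made up 45.5% of that sum in HFD_WT, while Mmp19 made up the largest share in HFD_TKO (23.5%) and ND_TKO (21.3%) and Mmp14 in ND_WT (22.1%). Among the 16 tested Mmp genes, 13 were called in HFD_TKO against HFD_WT, 10 lower and 3 higher, where 31.6% of all tested genes were lower and 15.2% higher. In WT 9 were higher and 2 lower on HFD, beside 37.8% and 20.3% of all tested genes, while in TKO 4 were higher and 1 lower, beside 16.2% and 5.9%.

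Mmp12 (chromosome 9, 7344397 to 7360461) encodes macrophage elastase. It stood at 50.7, 71.3 and 85.1 CPM in HFD_TKO, against 852, 881 and 611 CPM in HFD_WT. In the normal-diet groups it stood at 49.1, 13.1 and 15.6 CPM in ND_TKO, against 17.3, 19.6 and 23.0 CPM in ND_WT. The lowest HFD_WT library was far above the highest of the 9 others. Mmp12 fell in HFD_TKO relative to HFD_WT (log2 change -3.49, SE 0.38, adjusted p = 1.6e-05) and rose with the diet in WT (5.21, SE 0.38, adjusted p = 3.9e-07). The diet effect in TKO was smaller (1.59, SE 0.38, adjusted p = 0.0129), and the interaction was -3.62, SE 0.54, adjusted p = 0.00045. That smaller effect lost its call without HFD_TKO replicate 3 or ND_TKO replicate 3 (adjusted p = 0.0507 to 0.0619, range 0.00063 to 0.0619). On the normal diet the change was 0.12, and ND_TKO replicate 1 was the highest of the 6 libraries: without it the change turned to -0.45 (adjusted p = 0.306, range 0.306 to 0.982).

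Mmp3 (chromosome 9, 7445822 to 7455975), the stromelysin that also activates other Mmp precursors, held 3.40, 1.93 and 3.61 CPM in HFD_TKO, against 33.0, 38.7 and 30.4 CPM in HFD_WT. Under the normal diet it held 3.09, 4.40 and 2.0 CPM in ND_TKO, against 1.14, 2.63 and 1.05 CPM in ND_WT. The 3 HFD_WT libraries stood far above the other 9, which overlapped with each other. Mmp3 was lower in HFD_TKO than in HFD_WT (log2 change -3.16, SE 0.26, adjusted p = 2.0e-06) and higher in HFD_WT than in ND_WT (3.79, SE 0.26, adjusted p = 2.7e-07). Its interaction of -3.84 (SE 0.37, adjusted p = 3.1e-05) was the most negative of all members. Mmp13 (chromosome 9, 7272514 to 7283333), the main interstitial collagenase of rodents, was rarer, at 1.16, 0.552 and 0.777 CPM in HFD_TKO, against 3.87, 5.13 and 5.58 CPM in HFD_WT. On the normal diet there were 0.462, 0.556 and 0.223 CPM in ND_TKO, against 0.0482, 0.139 and 0.548 CPM in ND_WT, some of them near the limit of 3 reads. It was lower in HFD_TKO than in HFD_WT (-1.68, SE 0.19, adjusted p = 2.1e-05) and higher in HFD_WT than in ND_WT (2.24, SE 0.19, adjusted p = 1.2e-06).

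Mmp2 (chromosome 8, 92827290 to 92853421), gelatinase A, and Mmp14 (chromosome 14, 54431598 to 54442456), the membrane-type enzyme that activates it together with TIMP2, were abundant in every group. Mmp2 stood at 91.0, 85.3 and 90.6 CPM in HFD_TKO, against 322, 365 and 293 CPM in HFD_WT. On ND it stood at 57.7, 60.0 and 48.6 CPM in ND_TKO, against 77.9, 108 and 61.2 CPM in ND_WT. HFD_TKO fat was below HFD_WT (-1.86, SE 0.17, adjusted p = 3.2e-06), and HFD_WT above ND_WT (2.01, SE 0.17, adjusted p = 9.9e-07). The diet effect in TKO was 0.68, SE 0.17, adjusted p = 0.0141, and lost its call without ND_TKO replicate 3 (adjusted p = 0.0660, range 0.0022 to 0.0660). Between ND_TKO and ND_WT the change of -0.53 (adjusted p = 0.0842) was not called, but was without ND_WT replicate 3 (adjusted p = 0.0075, range 0.0075 to 0.235).

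Mmp14 had 70.3, 65.7 and 70.0 CPM in HFD_TKO, against 273, 297 and 249 CPM in HFD_WT. Among normal-diet libraries it had 57.6, 73.0 and 55.2 CPM in ND_TKO, against 91.5, 105 and 76.2 CPM in ND_WT. It was lower in TKO on HFD (-1.97, SE 0.13, adjusted p = 3.3e-07) and to a lesser degree on ND (-0.54, SE 0.13, adjusted p = 0.0272), and the difference between those effects was called (-1.43, SE 0.18, adjusted p = 0.00014). The call on ND was lost without ND_TKO replicate 1 or 3 or ND_WT replicate 1 or 2 and with its 2 groups fitted alone (adjusted p = 0.0933 to 0.120, range 0.0052 to 0.120). In WT the diet raised it (1.58, SE 0.13, adjusted p = 7.3e-07).

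Among the other stromelysins and membrane-type enzymes the direction varied. Mmp11 (chromosome 10, 75923221 to 75932502), stromelysin 3, had 7.21, 9.33 and 9.23 CPM in HFD_TKO, against 28.0, 33.9 and 24.8 CPM in HFD_WT. On the normal diet it had 13.6, 14.5 and 13.4 CPM in ND_TKO, against 13, 15.3 and 10.3 CPM in ND_WT. It was lower in HFD_TKO than in HFD_WT (-1.64, SE 0.15, adjusted p = 4.2e-06), higher in HFD_WT than in ND_WT (1.12, SE 0.15, adjusted p = 5.8e-05), and lower in HFD_TKO than in ND_TKO (-0.63, SE 0.15, adjusted p = 0.0128), so the diet moved it in opposite directions in the 2 genotypes. The interaction was -1.75, SE 0.21, adjusted p = 0.00012.

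Mmp15 (chromosome 8, 95352296 to 95374293), a second membrane-type enzyme, ran the other way, at 34.1, 30.0 and 30.8 CPM in HFD_TKO, against 13.5, 11.6 and 11.8 CPM in HFD_WT. In the normal-diet groups it had 18, 13.2 and 13.5 CPM in ND_TKO, against 10.4, 7.38 and 13.9 CPM in ND_WT. The 3 HFD_TKO libraries held the highest levels of all 12. It was higher in HFD_TKO than in HFD_WT (1.29, SE 0.18, adjusted p = 0.00011) and than in ND_TKO (1.05, SE 0.18, adjusted p = 0.0032). The interaction (0.81, SE 0.26, adjusted p = 0.0335) lost its call without HFD_TKO replicate 1, 2 or 3, HFD_WT replicate 2 or 3, ND_TKO replicate 2 or 3 or ND_WT replicate 1 and with no filter (adjusted p = 0.0502 to 0.0768, range 0.0044 to 0.0768). Between ND_TKO and ND_WT the change was 0.48 (adjusted p = 0.139), called without ND_WT replicate 3 (adjusted p = 0.0178, range 0.0178 to 0.382). Mmp24, the membrane-type enzyme best known from neural tissue, averaged 28.5 ± 0.380 CPM in HFD_TKO, against 18.7 ± 1.16 CPM in HFD_WT. It was higher in HFD_TKO (0.58, SE 0.10, adjusted p = 0.00055) and lower in HFD_WT than in ND_WT (-0.55, SE 0.10, adjusted p = 0.00060), which averaged 28.0 ± 4.02 CPM. Its interaction of 0.50 lost its call without HFD_WT replicate 1 (adjusted p = 0.0577, range 0.0051 to 0.0577). Mmp25, a lipid-anchored enzyme of leukocytes, was low and averaged 0.506 ± 0.164 CPM in HFD_TKO, against 0.995 ± 0.100 CPM in HFD_WT (-0.41, SE 0.13, adjusted p = 0.0230), a call lost without HFD_TKO replicate 1 or 3 or HFD_WT replicate 1 or 3 and with edgeR or DESeq2 (adjusted p = 0.0616 to 0.132, range 0.0073 to 0.132). Mmp17, also lipid-anchored, lay between 1.84 and 2.21 CPM on average in all 4 groups, with no call in the fit of all libraries. Gelatinase B, Mmp9, averaged 2.12 ± 0.283 CPM in HFD_TKO, against 2.36 ± 0.760 CPM in HFD_WT, and 2.36 ± 0.290 CPM in ND_TKO, against 3.32 ± 0.238 CPM in ND_WT. Its diet change in WT of -0.38 (adjusted p = 0.0533) was not called, but was without HFD_WT replicate 1 and with edgeR, DESeq2, limma-voom, TMM scaling or a pseudocount of 5 (adjusted p = 0.0061 to 0.0442, range 0.0061 to 0.185).

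Of the remaining Mmp genes, Mmp28 (chromosome 11, 83440768 to 83463040), epilysin, stood at 68.6, 84.3 and 90.1 CPM in HFD_TKO, against 40.4, 44.6 and 33.3 CPM in HFD_WT. Under the normal diet it stood at 72.0, 54.5 and 62.4 CPM in ND_TKO, against 54.1, 48.5 and 55.5 CPM in ND_WT. The HFD_WT libraries were the lowest and did not overlap with any other group. It was higher in HFD_TKO than in HFD_WT (1.02, SE 0.13, adjusted p = 6.6e-05) and lower in HFD_WT than in ND_WT (-0.42, SE 0.13, adjusted p = 0.0183). The diet call was lost without HFD_WT replicate 3 or ND_WT replicate 1 (adjusted p = 0.0529 to 0.0837, range 0.00065 to 0.0837). Mmp19 (chromosome 10, 128790910 to 128800827), a secreted enzyme of broad specificity, had 135, 108 and 132 CPM in HFD_TKO, against 164, 158 and 154 CPM in HFD_WT. On ND it had 82.7, 79.7 and 78.3 CPM in ND_TKO, against 77.3, 76.4 and 78.1 CPM in ND_WT. The diet raised it in WT (1.03, SE 0.08, adjusted p = 6.6e-07) and in TKO (0.62, SE 0.08, adjusted p = 0.0012). It was lower in HFD_TKO than in HFD_WT (-0.35, SE 0.08, adjusted p = 0.0037), a call lost with edgeR, DESeq2, limma-voom or TMM scaling (adjusted p = 0.0865 to 0.110, range 0.0021 to 0.110), and the interaction of -0.40 was lost without HFD_WT replicate 1 and with edgeR, DESeq2, limma-voom or TMM scaling (adjusted p = 0.0530 to 0.114, range 0.0093 to 0.114).

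Mmp23 was lower in TKO on both diets, with 16.0 ± 1.76 CPM in HFD_TKO, against 27.3 ± 2.05 CPM in HFD_WT (-0.74, SE 0.10, adjusted p = 7.6e-05), and 16.0 ± 0.223 CPM in ND_TKO, against 23.5 ± 2.11 CPM in ND_WT (-0.52, SE 0.10, adjusted p = 0.0103). The difference between those effects was not called, and the call on ND was lost with its 2 groups fitted alone (adjusted p = 0.0511, range 0.00077 to 0.0511). Mmp27 was low, with 1.30 ± 0.244 CPM in HFD_TKO, against 2.45 ± 0.196 CPM in HFD_WT (-0.59, SE 0.12, adjusted p = 0.0020). Mmp27 and Mmp25 were also higher in HFD_WT than in ND_WT, by 0.63, adjusted p = 0.00084 for Mmp27 and 0.53, adjusted p = 0.0046 for Mmp25 on the log2 scale. Exons of Mmp19 share 22.3% of their bases with Tmem198b on the opposite strand, and Mmp11, Mmp12, Mmp24 and Mmp28 overlap opposite genes over 2.17% to 13.6% of theirs. No label or header used here states whether counting used strand, so these values are uncertain to that extent.

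**Figure D2:**
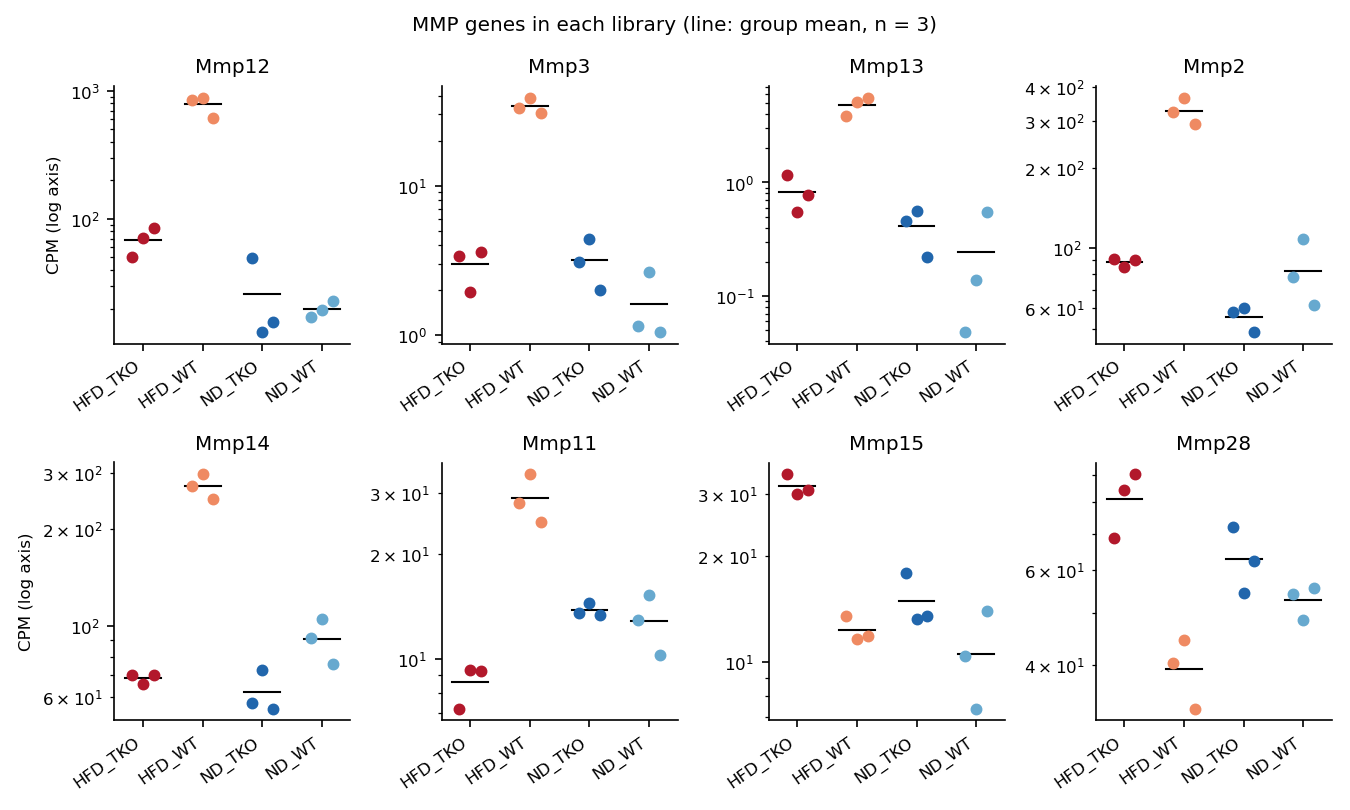
CPM on a log axis of 8 Mmp genes in each of the 12 libraries (points), by group, with the group mean (line, n = 3). Mmp12, Mmp3, Mmp13, Mmp2, Mmp14 and Mmp11 are highest in the 3 HFD_WT libraries, whereas Mmp15 is highest in HFD_TKO and Mmp28 lowest in HFD_WT.

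Mmp7, matrilysin, is an epithelial enzyme and was singled out after its values were seen, because it was present or absent library by library. It stood at 11.9 CPM in HFD_TKO replicate 2, 11.4 CPM in HFD_WT replicate 3, 15.8 and 2.05 CPM in ND_TKO replicates 2 and 3, and 11.4 CPM in ND_WT replicate 1. The other 7 libraries held at most 0.047 CPM. These libraries do not follow the groups, and no contrast was called. Adam7, a gene of the epididymal epithelium, which touches this fat pad, had reads in 4 of these 5 libraries: 0.414 CPM in HFD_TKO replicate 2, 0.520 CPM in HFD_WT replicate 3, 3.29 CPM in ND_TKO replicate 2 and 3.0 CPM in ND_WT replicate 1. Adam7 is 1 of 9 listed epididymal markers, of which 2 were tested. The whole list summed to 0.144 to 0.923 CPM in HFD_TKO, 0.238 to 0.783 CPM in HFD_WT, 0.558 to 3.99 CPM in ND_TKO and 0.465 to 3.25 CPM in ND_WT, and Lcn5, Lcn9 and Adam28 had no read. These ranges are by group and do not show whether the other markers follow Mmp7 library by library. The part of the epididymal epithelium in the Mmp7 values was not tested.

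**Figure D3:**
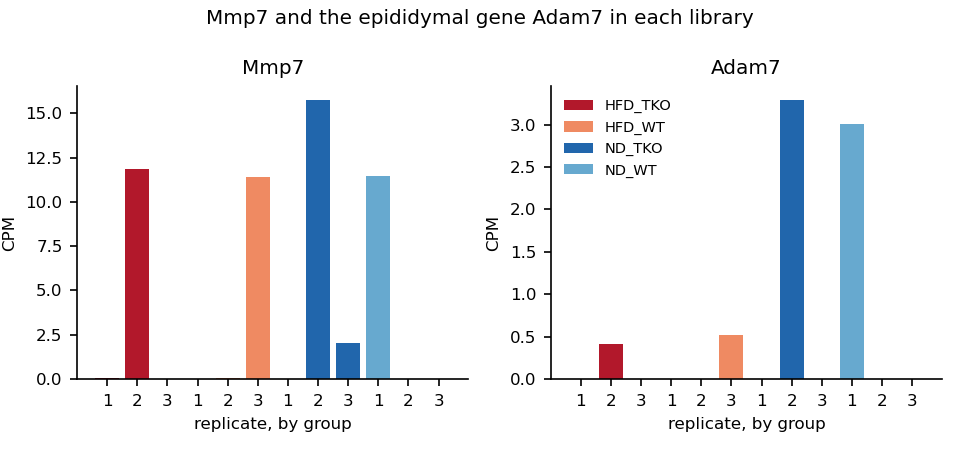
CPM of Mmp7 (left) and of the epididymal gene Adam7 (right) in each library, with bars starting at 0 and coloured by group. Mmp7 is at 2.05 CPM or more in 5 libraries spread over the 4 groups, and Adam7 is at 0.414 CPM or more in 4 of those 5.

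The TIMP inhibitors did not move as a block. Timp1 (chromosome X, 20870166 to 20874737), the inducible inhibitor, had 9.40, 8.55 and 13.5 CPM in HFD_TKO, against 35.3, 36.9 and 28.3 CPM in HFD_WT. Among normal-diet libraries it had 5.35, 5.24 and 3.33 CPM in ND_TKO, against 2.58, 2.31 and 7.48 CPM in ND_WT. HFD_TKO lay between HFD_WT and the normal-diet libraries with no overlap. Timp1 was lower in HFD_TKO than in HFD_WT (-1.60, SE 0.31, adjusted p = 0.0013), and the diet raised it in WT (2.88, SE 0.31, adjusted p = 9.5e-06) and less in TKO (1.02, SE 0.31, adjusted p = 0.0366), with an interaction of -1.86 (adjusted p = 0.0081). The diet call in TKO was lost without HFD_TKO replicate 1 or 3, HFD_WT replicate 1 or 2 or ND_TKO replicate 1, 2 or 3 and with edgeR, TMM scaling, no filter or the replicate number as a block (adjusted p = 0.0506 to 0.138, range 0.0030 to 0.138).

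Timp2 (chromosome 11, 118301061 to 118355411), which takes part in activating MMP2 at the cell surface besides inhibiting Mmp enzymes, had 348, 397 and 431 CPM in HFD_TKO, against 807, 903 and 850.4 CPM in HFD_WT. On the normal diet it had 342, 404 and 342 CPM in ND_TKO, against 467, 443 and 535 CPM in ND_WT. Each TKO library was below each WT library of its diet. Timp2 was lower in TKO on HFD (-1.12, SE 0.11, adjusted p = 4.8e-06) and on ND (-0.41, SE 0.11, adjusted p = 0.0448), by more on HFD (interaction -0.72, SE 0.15, adjusted p = 0.0038). The call on ND was lost without HFD_TKO replicate 2 or 3, HFD_WT replicate 1, 2 or 3, ND_TKO replicate 1 or 3 or ND_WT replicate 1, 2 or 3 and with edgeR, TMM scaling, no filter or its 2 groups fitted alone (adjusted p = 0.0501 to 0.143, range 0.0036 to 0.143). The diet raised it in WT (0.83, SE 0.11, adjusted p = 3.5e-05), while the diet contrast in TKO was not called.

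Timp4 (chromosome 6, 115244444 to 115252205), the inhibitor most restricted to a few tissues including fat, moved against Timp1 and Timp2, at 95.1, 126 and 120.2 CPM in HFD_TKO, against 39.1, 34.4 and 41.8 CPM in HFD_WT. In the normal-diet groups it stood at 117, 144 and 142 CPM in ND_TKO, against 197, 195 and 481 CPM in ND_WT. HFD_WT held the lowest levels and ND_WT the highest, and ND_WT replicate 3 was far above replicates 1 and 2. Timp4 was higher in HFD_TKO than in HFD_WT (1.53, SE 0.28, adjusted p = 0.00071) and lower in HFD_WT than in ND_WT (-2.76, SE 0.28, adjusted p = 4.9e-06), with the most positive interaction of all members (2.52, SE 0.39, adjusted p = 0.00060). Between ND_TKO and ND_WT the change of -0.98 (adjusted p = 0.0606) was not called, but was without ND_WT replicate 2 or 3 and with DESeq2 (adjusted p = 0.0022 to 0.0473, range 0.0022 to 0.178). Without ND_WT replicate 3 that change was -0.55. The diet change in WT and the interaction of Timp4 use the same library, and both are larger with it than without it. Neither of these calls was lost when it was left out.

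Timp3, the matrix-bound inhibitor that also blocks ADAM17 and several ADAMTS enzymes, averaged 660.2 ± 125 CPM in HFD_TKO, against 484 ± 29.2 CPM in HFD_WT (0.43, SE 0.15, adjusted p = 0.0332). Under the normal diet it averaged 734 ± 112 CPM in ND_TKO, against 596 ± 80.8 CPM in ND_WT, a change of 0.30 that was not called. Its diet change in WT of -0.29 (adjusted p = 0.114) was called with edgeR, DESeq2, limma-voom or TMM scaling (adjusted p = 0.0010 to 0.0097, range 0.0010 to 0.324). The call on HFD was lost without HFD_TKO replicate 2 or 3 or HFD_WT replicate 1 or 2 and with no filter (adjusted p = 0.0525 to 0.133, range 3.6e-05 to 0.133). Exons of Timp3 share 21.3% of their bases with Syn3 on the opposite strand. Per kilobase of annotated exon, Timp2 and Timp3 were the most abundant inhibitors in every group: in HFD_TKO Timp2 stood at 101, Timp3 at 81.1, Timp4 at 19.3 and Timp1 at 11.8 CPM per kilobase. In HFD_WT the levels per kilobase were 219 for Timp2, 59.4 for Timp3, 37.7 for Timp1 and 6.52 for Timp4, so Timp1 and Timp4 had changed places. On the same scale Mmp12 stood at 9.54 in HFD_TKO and 108 in HFD_WT, Mmp2 at 26.4 in HFD_TKO and 97 in HFD_WT, and Mmp14 at 11.5 in HFD_TKO and 45.8 in HFD_WT. These lengths merge all exons that GENCODE lists for a gene (7.24 kb for Mmp12). They can exceed the length of the transcript present, so the order of genes on this scale is approximate.

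**Figure D4:**
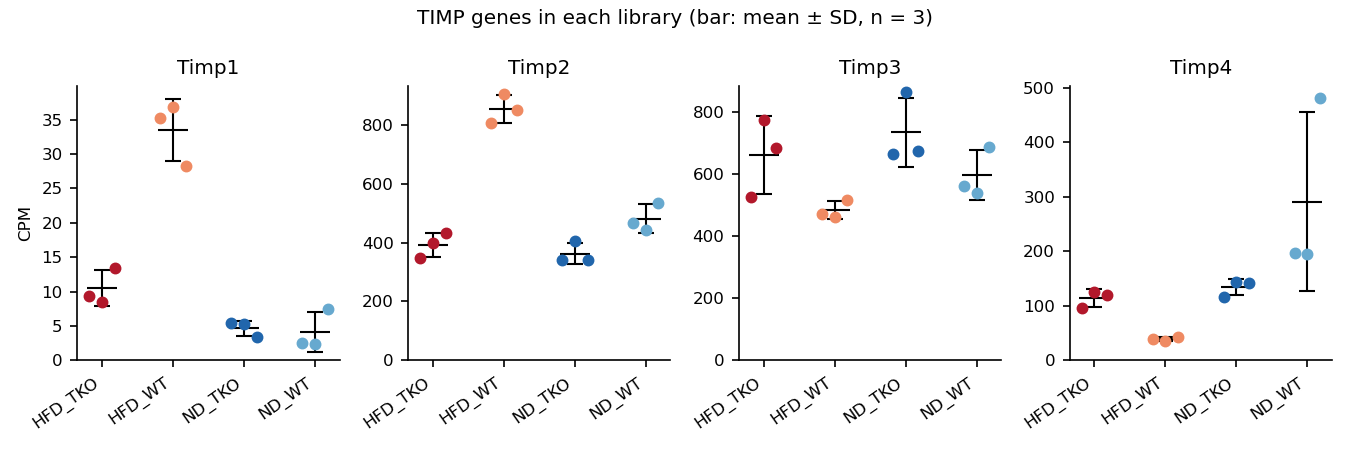
CPM of Timp1, Timp2, Timp3 and Timp4 in each library (points), by group, with mean and SD (n = 3). Timp1 and Timp2 are highest in HFD_WT, Timp4 is lowest there, and ND_WT replicate 3 is the highest Timp4 library.

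Summed over the 19 Adamts genes, the level was 979.8, 906 and 903 CPM in HFD_TKO, against 844, 894 and 827 CPM in HFD_WT. It was 642, 567 and 515 CPM in ND_TKO, against 462, 404 and 804 CPM in ND_WT, where replicate 3 stood far above the other two. Among the 17 tested ADAMTS genes 5 were called in HFD_TKO against HFD_WT, 2 higher and 3 lower, where 46.7% of all tested genes were called. Between diets 9 were higher and 1 lower in HFD_WT than in ND_WT, and 4 were higher in HFD_TKO than in ND_TKO, beside 58.1% of all tested genes called in WT and 22.1% in TKO. Adamts9, a proteoglycanase that cuts versican and aggrecan, was the only member called higher in TKO on both diets. It averaged 71.6 ± 4.43 CPM in HFD_TKO, against 48.8 ± 2.73 CPM in HFD_WT (0.55, SE 0.09, adjusted p = 0.00051), and 62.0 ± 5.07 CPM in ND_TKO, against 35.8 ± 4.14 CPM in ND_WT (0.78, SE 0.09, adjusted p = 0.00086). All 3 TKO libraries lay above all 3 WT libraries on each diet, and neither call was lost under any alternative run. The interaction was not called. Adamts9 was also higher in HFD_WT than in ND_WT (0.44, SE 0.09, adjusted p = 0.0016).

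Adamts4 and Adamts5 are the main aggrecan-cutting enzymes of the family. Adamts5 (chromosome 16, 85858157 to 85901125) stood at 484, 405 and 406 CPM in HFD_TKO, against 309.9, 306 and 323 CPM in HFD_WT. On ND it stood at 222, 146 and 139.8 CPM in ND_TKO, against 143, 86 and 437 CPM in ND_WT. ND_WT replicate 3 was as high as the HFD_TKO libraries, and ND_WT replicates 1 and 2 were among the lowest. The diet raised Adamts5 in TKO (1.37, SE 0.43, adjusted p = 0.0389), a call lost without HFD_TKO replicate 1, 2 or 3, HFD_WT replicate 1, 2 or 3 or ND_TKO replicate 2 or 3 and with edgeR, DESeq2, limma-voom, TMM scaling or no filter (adjusted p = 0.0523 to 0.126, range 0.00020 to 0.126). In WT the diet change was 0.83 (adjusted p = 0.113), and 1.49 without ND_WT replicate 3 (adjusted p = 0.00012, range 0.00012 to 0.598). Between HFD_TKO and HFD_WT the libraries did not overlap, but the change of 0.46 was not called (adjusted p = 0.412). It was called only with its 2 groups fitted alone (adjusted p = 0.0029, range 0.0029 to 0.585).

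Adamts4 (chromosome 1, 171250129 to 171262267) had 6.47, 2.89 and 3.38 CPM in HFD_TKO, against 6.76, 7.79 and 6.36 CPM in HFD_WT. Among normal-diet libraries it had 4.89, 8.25 and 5.07 CPM in ND_TKO, against 2.91, 3.50 and 1.10 CPM in ND_WT. The groups on HFD overlapped and those on ND did not. The diet raised it in WT (1.26, SE 0.30, adjusted p = 0.0038), and the interaction was -1.71, SE 0.43, adjusted p = 0.0109. The TKO change was -0.66 on HFD and 1.05 on ND, neither called: on HFD it was called without HFD_TKO replicate 1 or ND_WT replicate 3 (adjusted p = 0.0243 to 0.0396, range 0.0243 to 0.277), and on ND without HFD_TKO replicate 1 and with DESeq2 (adjusted p = 0.0194 to 0.0358, range 0.0194 to 0.160).

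Adamts15 (chromosome 9, 30899155 to 30922452), another proteoglycanase, varied within the TKO groups, at 15.9, 34.2 and 31.0 CPM in HFD_TKO, against 33.3, 39.4 and 34.0 CPM in HFD_WT. On the normal diet it had 11.5, 40.2 and 26.5 CPM in ND_TKO, against 10.9, 12.4 and 6.71 CPM in ND_WT. In both TKO groups replicate 1 was the lowest library. The diet raised it in WT (1.76, SE 0.39, adjusted p = 0.0020). The interaction (-1.62, SE 0.55, adjusted p = 0.0437) lost its call without HFD_TKO replicate 1 or 3, HFD_WT replicate 1, 2 or 3, ND_TKO replicate 2 or 3 or ND_WT replicate 1 or 3 and with no filter (adjusted p = 0.0558 to 0.0966, range 0.0048 to 0.0966). The change of 1.17 on ND (adjusted p = 0.0992) was not called, but was without ND_TKO replicate 1 and with DESeq2 (adjusted p = 0.0024 to 0.0195, range 0.0024 to 0.234). Adamts1 averaged 57.6 ± 2.40 CPM in HFD_TKO, against 76.7 ± 9.79 CPM in HFD_WT (-0.40, SE 0.13, adjusted p = 0.0253), a call lost without HFD_TKO replicate 3 or HFD_WT replicate 1 or 2 and with edgeR, DESeq2, limma-voom or TMM scaling (adjusted p = 0.0787 to 0.103, range 0.0115 to 0.103). Adamts8 was low, with 1.12 ± 0.497 CPM in HFD_TKO, against 0.367 ± 0.202 CPM in HFD_WT (0.61, SE 0.19, adjusted p = 0.0213), and lost its call without HFD_TKO replicate 2 or 3 or HFD_WT replicate 1 or 3 (adjusted p = 0.0546 to 0.0912, range 0.0033 to 0.0912). Its lower level in HFD_WT than in ND_WT (-0.61, adjusted p = 0.0172) was lost without HFD_WT replicate 3 or ND_WT replicate 1 (adjusted p = 0.0649 to 0.0685, range 0.0042 to 0.0685). Its interaction (0.92, adjusted p = 0.0258) was lost without HFD_TKO replicate 2 or 3, HFD_WT replicate 1 or 3, ND_TKO replicate 2 or ND_WT replicate 1 (adjusted p = 0.0531 to 0.0657, range 0.0050 to 0.0657).

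Adamts2, Adamts3 and Adamts14 remove the amino-terminal propeptide of fibrillar procollagens. Adamts2 (chromosome 11, 50602085 to 50807573) had 219, 197 and 217 CPM in HFD_TKO, against 244, 271 and 228 CPM in HFD_WT. In the normal-diet groups it had 159.6, 109.9 and 115 CPM in ND_TKO, against 87.7, 84.2 and 161 CPM in ND_WT. It rose with the diet in WT (1.21, SE 0.21, adjusted p = 0.00041) and in TKO (0.73, SE 0.21, adjusted p = 0.0293), and the call in TKO was lost without HFD_TKO replicate 1 or 3 or ND_TKO replicate 2 or 3 and with edgeR, limma-voom or TMM scaling (adjusted p = 0.0593 to 0.106, range 0.0020 to 0.106). Adamts14 (chromosome 10, 61197112 to 61273419) had 6.70, 5.05 and 5.76 CPM in HFD_TKO, against 10.9, 12.3 and 11.5 CPM in HFD_WT. Under the normal diet it had 3.0, 4.54 and 4.58 CPM in ND_TKO, against 2.91, 4.66 and 4.02 CPM in ND_WT. HFD_WT lay above all other groups with no overlap. It was lower in HFD_TKO than in HFD_WT (-0.88, SE 0.17, adjusted p = 0.0011), higher in HFD_WT than in ND_WT (1.39, SE 0.17, adjusted p = 2.4e-05), and its interaction was -0.94, SE 0.24, adjusted p = 0.0118. Adamts3 averaged 1.43 to 1.85 CPM with no call in that fit. Of the other 8 tested ADAMTS genes, Adamts6 was lower in HFD_TKO (-0.62, SE 0.20, adjusted p = 0.0214), a call lost without HFD_TKO replicate 1 or 3 or HFD_WT replicate 1 or 3 (adjusted p = 0.0560 to 0.0839, range 0.0026 to 0.0839). Adamts7, which cuts the cartilage protein COMP, was higher on HFD in TKO (0.66, SE 0.13, adjusted p = 0.0063) and in WT (0.48, SE 0.13, adjusted p = 0.0086), the second lost with edgeR, DESeq2 or TMM scaling (adjusted p = 0.0511 to 0.0590, range 0.0024 to 0.0590). Adamts16 was higher on HFD in TKO (0.90, adjusted p = 0.0164), a call lost without HFD_TKO replicate 1 or 3 or ND_TKO replicate 2 or 3 and with edgeR or DESeq2 (adjusted p = 0.0520 to 0.109, range 0.0065 to 0.109). In WT it was also higher on HFD (0.63, adjusted p = 0.0317), a call lost without HFD_WT replicate 2 or 3 or ND_WT replicate 1 or 2 and with edgeR, DESeq2 or TMM scaling (adjusted p = 0.0582 to 0.125, range 0.0079 to 0.125). Between HFD_TKO and HFD_WT its change of 0.56 was not called, but was without HFD_TKO replicate 2, ND_TKO replicate 1 or ND_WT replicate 3 and with TMM scaling, a pseudocount of 5 or its 2 groups fitted alone (adjusted p = 0.0248 to 0.0468, range 0.0248 to 0.185). Adamts17 was higher on HFD in WT (0.55, adjusted p = 0.0221), a call lost without HFD_WT replicate 2 or ND_WT replicate 3 (adjusted p = 0.0574 to 0.0910, range 0.0118 to 0.0910). Adamts10, Adamts12, Adamts18 and Adamts19 had no call in any contrast of the fit of all libraries.

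Collagen crosslinking starts with hydroxylation of lysines in the cell (Plod) and goes on with their oxidation outside it (Lox, Loxl). All 5 lysyl oxidases were higher in HFD_WT than in ND_WT, and 2 of 5, Lox and Loxl3, were lower in HFD_TKO than in HFD_WT, beside 37.8% of all tested genes higher with the diet in WT and 31.6% lower in HFD_TKO. Lox (chromosome 18, 52516060 to 52529867) had 112, 68.4 and 72.2 CPM in HFD_TKO, against 172, 147 and 209 CPM in HFD_WT. On ND it had 75.9, 64.6 and 58.4 CPM in ND_TKO, against 54.5, 59.2 and 88.6 CPM in ND_WT. The HFD_WT libraries were the 3 highest. Lox was lower in HFD_TKO than in HFD_WT (-1.07, SE 0.22, adjusted p = 0.0015) and higher in HFD_WT than in ND_WT (1.39, SE 0.22, adjusted p = 0.00017). The interaction (-1.08, SE 0.30, adjusted p = 0.0202) lost its call without HFD_TKO replicate 2 or 3, HFD_WT replicate 3 or ND_WT replicate 1 and with edgeR (adjusted p = 0.0501 to 0.0520, range 0.0042 to 0.0520).

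Loxl2 (chromosome 14, 69608692 to 69695834), which crosslinks the collagen IV of basement membranes, rose with the diet in both genotypes. It had 88.7, 87.7 and 113 CPM in HFD_TKO, against 109.6, 122.7 and 108 CPM in HFD_WT. Among normal-diet libraries it had 58.1, 47.2 and 44.8 CPM in ND_TKO, against 45.0, 54.6 and 63.0 CPM in ND_WT. The diet change was 1.06, SE 0.14, adjusted p = 4.2e-05 in WT and 0.93, SE 0.14, adjusted p = 0.0017 in TKO, and HFD_TKO differed from HFD_WT by -0.24 (adjusted p = 0.176), with overlapping libraries. Loxl4 likewise rose with the diet in WT (0.68, adjusted p = 0.0048) and in TKO (0.74, adjusted p = 0.0115). Loxl3 averaged 19.6 ± 1.73 CPM in HFD_TKO, against 35.1 ± 3.09 CPM in HFD_WT (-0.81, SE 0.09, adjusted p = 1.6e-05). On the normal diet it averaged 18.1 ± 0.456 CPM in ND_TKO, against 23.0 ± 1.13 CPM in ND_WT. That change of -0.33 (adjusted p = 0.0523) was called without HFD_TKO replicate 1 and with a filter of 1 CPM (adjusted p = 0.0423 to 0.0487, range 0.0423 to 0.128). Loxl3 rose with the diet in WT (0.59, adjusted p = 0.00014). Loxl1, needed for elastic fibres, averaged 74.7 ± 10.9 CPM in HFD_TKO, against 85.4 ± 12.6 CPM in HFD_WT, a difference of -0.19 that was not called. It rose with the diet in WT (0.83, adjusted p = 0.0044), and in TKO the change of 0.45 (adjusted p = 0.136) was called without ND_WT replicate 3 and with its 2 groups fitted alone or TKO libraries of the same number paired (adjusted p = 0.0132 to 0.0292, range 0.0132 to 0.331).

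Plod2 (chromosome 9, 92539636 to 92608428), which hydroxylates the telopeptide lysines that give the most stable collagen crosslinks, had 21.9, 23.0 and 23.2 CPM in HFD_TKO, against 39.9, 40.6 and 38.7 CPM in HFD_WT. In the normal-diet groups it had 14.3, 18.4 and 16.0 CPM in ND_TKO, against 11.4, 11.1 and 13.7 CPM in ND_WT. The 4 groups did not overlap, in the order HFD_WT, HFD_TKO, ND_TKO and ND_WT from high to low. Plod2 was lower in TKO on HFD (-0.78, SE 0.10, adjusted p = 6.5e-05) and higher in TKO on ND (0.40, SE 0.10, adjusted p = 0.0442), with an interaction of -1.18 (adjusted p = 0.00012). The call on ND was lost without HFD_TKO replicate 2 or 3, HFD_WT replicate 1, 2 or 3, ND_TKO replicate 2 or 3 or ND_WT replicate 1 or 2 and with a pseudocount of 5, no filter or its 2 groups fitted alone (adjusted p = 0.0504 to 0.187, range 0.0013 to 0.187). The diet raised Plod2 in WT (1.64, SE 0.10, adjusted p = 1.1e-07) and in TKO (0.46, SE 0.10, adjusted p = 0.0088). Plod1 also rose with the diet in WT (0.80, adjusted p = 8.7e-05) and in TKO (0.56, adjusted p = 0.0065). Plod3, which also adds sugars to hydroxylysine, averaged 193 ± 23.3 CPM in HFD_TKO, against 149.99 ± 9.71 CPM in HFD_WT, a change of 0.35 (adjusted p = 0.076) that was called without ND_WT replicate 3 and with edgeR, DESeq2, limma-voom, TMM scaling or its 2 groups fitted alone (adjusted p = 0.0151 to 0.0328, range 0.0151 to 0.231). Its diet change of 0.41 in TKO (adjusted p = 0.0757) was called without ND_TKO replicate 1 or ND_WT replicate 3 and with TKO libraries of the same number paired (adjusted p = 0.0053 to 0.0426, range 0.0053 to 0.228).

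Tgm2, tissue transglutaminase, joins glutamine to lysine residues. It averaged 386 ± 14.6 CPM in HFD_TKO, against 456 ± 22.2 CPM in HFD_WT, and 332 ± 7.68 CPM in ND_TKO, against 291 ± 16.4 CPM in ND_WT. The change of 0.19 on ND (adjusted p = 0.128) was not called, but was with DESeq2 (adjusted p = 0.0350, range 0.0350 to 0.326). The diet raised it in WT (0.65, SE 0.07, adjusted p = 7.9e-06), and the interaction was -0.43, SE 0.10, adjusted p = 0.0062. The lower level in HFD_TKO (-0.24, adjusted p = 0.0129) was lost without HFD_TKO replicate 3 or HFD_WT replicate 1 or 2 and with edgeR, DESeq2, limma-voom or TMM scaling (adjusted p = 0.0504 to 0.331, range 0.0082 to 0.331). The diet call in TKO (0.22, adjusted p = 0.0410) was lost without HFD_TKO replicate 1, 2 or 3, HFD_WT replicate 1 or 2, ND_TKO replicate 1, 2 or 3 or ND_WT replicate 1 and with edgeR, DESeq2, limma-voom, TMM scaling, its 2 groups fitted alone, the replicate number as a block or TKO libraries of the same number paired (adjusted p = 0.0566 to 0.270, range 0.0258 to 0.270). Exons of Tgm2, Loxl3 and Plod3 overlap opposite genes over 8.03% to 13.7% of their bases, with the same limit as above.

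**Figure D5:**
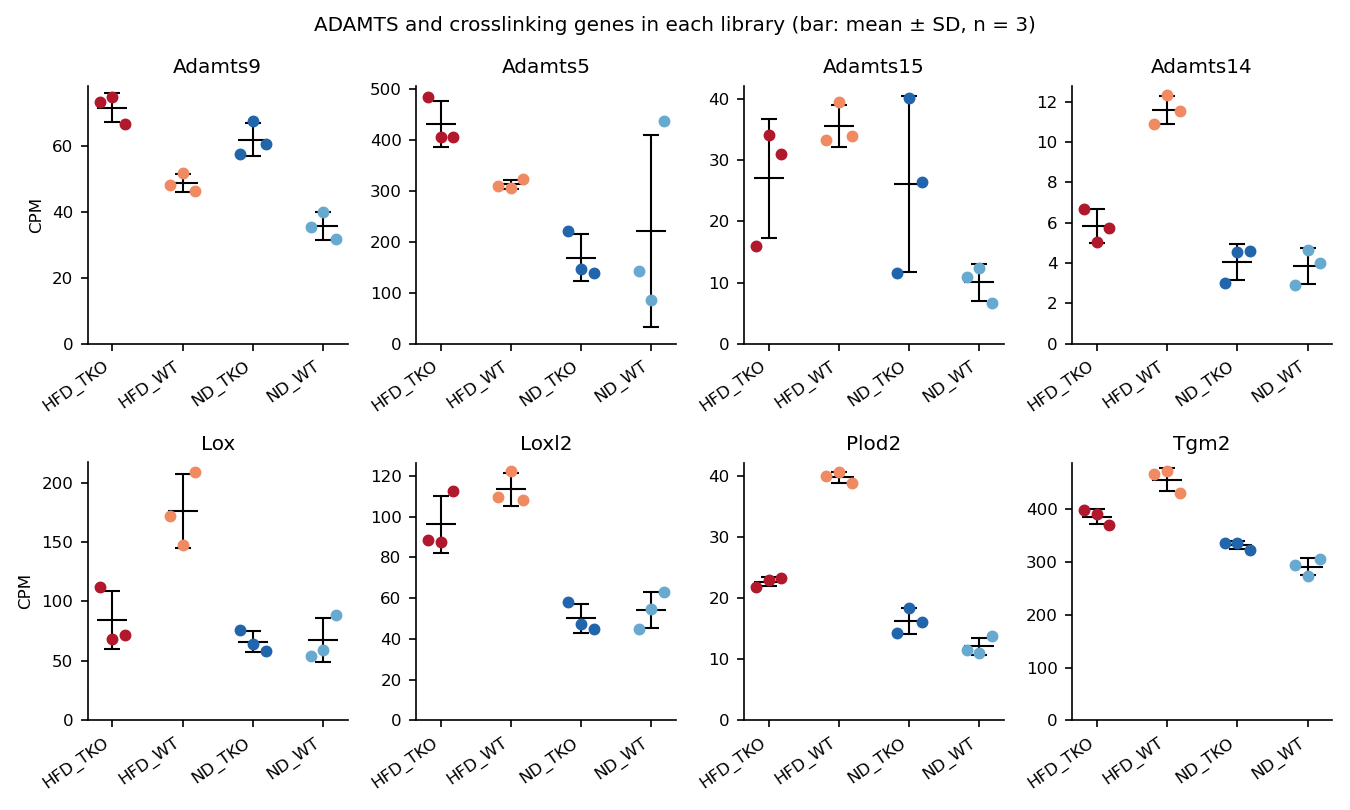
CPM of 4 ADAMTS genes (top) and 4 crosslinking genes (bottom) in each library (points), by group, with mean and SD (n = 3). Adamts9 is higher in TKO than in WT on both diets, ND_WT replicate 3 stands far above the other ND_WT libraries for Adamts5, and Lox and Plod2 are highest in HFD_WT.

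Other proteases and collagen-handling genes, from lists that hold no member, were read beside these, over the same fit. Beside their counts stand 15.2% of all tested genes higher and 31.6% lower in HFD_TKO than in HFD_WT, and 37.8% higher in HFD_WT than in ND_WT. Of 10 tested genes of the plasminogen system and the cathepsins, 9 were lower in HFD_TKO than in HFD_WT, and 9 were higher in HFD_WT than in ND_WT. Their median change was -1.22 in HFD_TKO against HFD_WT, beside -0.10 over all tested genes. Ctsk, the collagen-cutting cathepsin of osteoclasts and macrophages, had 47.8, 44.3 and 44.0 CPM in HFD_TKO, against 331, 392 and 257 CPM in HFD_WT (-2.80, SE 0.17, adjusted p = 3.0e-07). Ctss, a cathepsin of antigen-presenting cells, changed by -2.71, and Plau, the urokinase that activates plasminogen, by -1.41. Serpine2, an inhibitor of urokinase and thrombin, was lower in TKO on both diets, with 31.1 ± 1.25 CPM in HFD_TKO, against 87.6 ± 4.43 CPM in HFD_WT (-1.46, SE 0.10, adjusted p = 4.3e-07), and 26.9 ± 3.62 CPM in ND_TKO, against 76.3 ± 6.91 CPM in ND_WT (-1.47, SE 0.10, adjusted p = 7.5e-06).

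Of 13 ADAM and other surface or secreted proteases, 5 were lower in HFD_TKO than in HFD_WT, a share near that of all genes. Adam8, a leukocyte protease, had 38.4 ± 9.0 CPM in HFD_TKO, against 301 ± 28.6 CPM in HFD_WT (-2.96, SE 0.37, adjusted p = 5.2e-05), and Adam19 and Adam17 changed by -1.73 and -1.07. In WT 9 of these 13 were higher on HFD. Of 13 collagen folding and hydroxylation genes, 2 were higher and 5 lower in HFD_TKO than in HFD_WT, among them P3h3 (-0.80) and Fkbp10 (-0.68), and 10 were higher in HFD_WT than in ND_WT. Pcolce, which speeds removal of the carboxy-terminal propeptide of procollagen, had 61.5 ± 2.25 CPM in HFD_TKO, against 146 ± 19.1 CPM in HFD_WT (-1.22, SE 0.12, adjusted p = 6.4e-06), and was 1 of 2 lower among 9 other protease regulators. Of 6 ADAMTS-like proteins and papilin, 1 was higher (Adamtsl4, 0.96) and 2 lower in HFD_TKO. Of 7 crosslinking partners, 2 were higher and 1 lower in HFD_TKO, the elastin gene Eln changing by 0.78 and Efemp2, which guides elastic fibre assembly, by -0.83.

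Among 9 tested substrates, 3 were lower and 2 higher in HFD_TKO than in HFD_WT. Comp, a cartilage matrix protein cut by ADAMTS enzymes, had 0.419, 0.276 and 0.183 CPM in HFD_TKO, against 13.9, 12.3 and 13.6 CPM in HFD_WT. Under the normal diet it had 0.416, 0.417 and 0.534 CPM in ND_TKO, against 0.811, 0.323 and 0.411 CPM in ND_WT. The HFD_WT libraries alone stood above 1 CPM (log2 change -3.47, SE 0.14, adjusted p = 3.0e-08). Col1a1 was lower in HFD_TKO (-0.95), while Col6a1, a chain of the collagen VI abundant in fat, was higher in TKO on HFD (0.92, adjusted p = 0.0111) and on ND (1.38, adjusted p = 0.0095), the call on ND being lost with its 2 groups fitted alone (adjusted p = 0.0598, range 4.2e-06 to 0.0598). In HFD_WT against ND_WT 8 of the 9 substrates were higher.

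Markers of cell types that express some of these enzymes moved with the groups. The 7 macrophage markers summed to 402 to 492 CPM in HFD_TKO, 1959.6 to 2333 CPM in HFD_WT, 214 to 286 CPM in ND_TKO and 302 to 358 CPM in ND_WT, and 6 of 7 were lower in HFD_TKO than in HFD_WT. The lipid-associated macrophage markers without Lpl, which adipocytes also express, summed to 193 to 318 CPM in HFD_TKO, 2406 to 3334 CPM in HFD_WT, 97.9 to 194 CPM in ND_TKO and 107 to 158 CPM in ND_WT. With Lpl the 7 markers of that list summed to 18715 to 20810 CPM in HFD_TKO, against 11902 to 14292 CPM in HFD_WT. Of these 7, 6 were lower and 1 higher in HFD_TKO than in HFD_WT. No marker of either list lacked reads. The ranges for Mmp12, Mmp3 and Mmp13 are ordered on HFD like the macrophage sum and the sum without Lpl, but not like the sum with Lpl. The stromal, mast cell and neutrophil sums given below have that order on HFD too. On ND the macrophage sum was lower in ND_TKO than in ND_WT, and the sums without Lpl overlapped. Mmp12, Mmp3 and Mmp13 averaged higher in ND_TKO than in ND_WT, with overlapping libraries and no call in the fit of all libraries. The part of macrophage content in these values was not tested. Of 7 adipocyte markers all were higher in HFD_TKO than in HFD_WT, and 5 were lower in HFD_TKO than in ND_TKO. Of 7 stromal markers 4 were lower and 1 higher in HFD_TKO than in HFD_WT. The stromal sum was 3134 to 3770 CPM in HFD_TKO, 4248 to 4591 CPM in HFD_WT, 3293 to 3467 CPM in ND_TKO and 2549 to 3057 CPM in ND_WT. The 7 endothelial markers summed to 687 to 796 CPM in HFD_TKO and 705 to 786 CPM in HFD_WT, which overlapped. Mast cell markers summed to 24.9 to 32.7 CPM in HFD_TKO and 165 to 209.9 CPM in HFD_WT, and neutrophil markers to 2.39 to 7.54 CPM in HFD_TKO and 14.6 to 16.4 CPM in HFD_WT. Of 5 mast cell markers 4 were lower in HFD_TKO than in HFD_WT. Only 3 of the 7 neutrophil markers were tested, of which 1 was lower in HFD_TKO and 2 were not called, so that list did not move together. The 6 mesothelial markers ranged from 38.3 to 188 CPM in HFD_TKO and from 91.5 to 112 CPM in HFD_WT. The part of these cell types in the members' values was not tested either.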

How the data were processed

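RNA of 12 eWAT libraries (4 groups of 3) was isolated with a column kit and made into Illumina libraries, per the labels' protocols. STAR 2.7.3a, featureCounts 2.0.0, DESeq2 and mm10 are named in the submitters' processing notes. The deposited table holds CPM that the authors divided by library total without further scaling, its columns being headed as raw CPM per the file headers. The CPM steps gave whole reads for 100% of values (within 0.05 read), and 3 rows without a symbol, with 0.0313% to 0.0679% of the CPM, were left out.

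CPM values were tested with limma 3.58.1 (R 4.3.3) on log2(CPM + 1) with a mean-variance trend, a mean for each group and 8 residual degrees of freedom, over 15597 genes, and the code was tested on simulated data. Alternatives were edgeR 4.0.16 (quasi-likelihood), DESeq2 1.42.0 and limma-voom on the recovered reads, TMM scaling, pseudocounts of 0.5 and 5, a filter at 1 CPM and no filter, fits of a contrast's 2 groups alone, the replicate number as a block, and leaving out each library. All members and lists were chosen with earlier results of these data known. Values of every library are given for members called with a log2 change of at least 1, the other tested members by means, ranges or counts, and from each list at most 4 called genes with the largest changes. The deviations of same-numbered libraries from their group means correlated at 0.39, 0.56 and 0.12 between HFD_TKO and ND_TKO, so these 2 groups were also fitted as pairs, an alternative chosen after seeing the data. Chromosome positions and promoters were those of RefSeq for GRCm38.p6. Exon lengths and overlaps with other genes came from the GENCODE annotation, with all exons of a gene merged. Of the tested genes 89 had the same values as another gene in every library, with 0 members among them.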

Additional observations from a re-analysis of the deposited data

Results flagged for a closer look

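For 22 members the TKO effect on HFD (HFD_TKO minus HFD_WT) differed from that on ND (ND_TKO minus ND_WT) in limma at an adjusted p under 0.05 over all tested genes. The share of all tested genes with such a difference was 28.7%. Values below are this difference on the log2(CPM + 1) scale. It was negative for 17 members. Among the Mmp genes it was -3.84 for Mmp3, -3.62 for Mmp12, -1.88 for Mmp13, -1.75 for Mmp11, -1.43 for Mmp14, -1.33 for Mmp2, -0.738 for Mmp27 and -0.402 for Mmp19. Among the inhibitors it was -1.86 for Timp1 and -0.716 for Timp2. Among the ADAMTS genes it was -1.71 for Adamts4, -1.62 for Adamts15 and -0.937 for Adamts14. Among the crosslinking genes it was -1.18 for Plod2, -1.08 for Lox, -0.485 for Loxl3 and -0.429 for Tgm2. The difference was positive for 5 members, at 2.52 for Timp4, 0.918 for Adamts8, 0.811 for Mmp15, 0.776 for Mmp28 and 0.501 for Mmp24. The calls lost under at least 1 alternative were those of Mmp15, Mmp19, Mmp24, Adamts8, Adamts15 and Lox.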

How the results depend on the processing

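Of the 100 calls made for members over the 5 contrasts, 70 were kept under all alternatives and 30 were lost under at least 1, while 0 changed direction. By setting, 85 were kept with edgeR, 89 with DESeq2, 92 with limma-voom and 88 with TMM scaling. On ND, in place of 5 members called between ND_TKO and ND_WT, there were 9 with DESeq2, 3 with no filter and 1 with only the groups of the contrast, and the cause was not tested. Of all tested genes, 8.94%, 3.65% and 1.8% were called in these settings, against 5.7% in the main fit. Leaving out 1 library at a time gave 2 to 9 members there, 20 to 29 between HFD_TKO and HFD_WT, 29 to 35 between diets in WT, 8 to 17 between diets in TKO and 18 to 23 for the interaction. Of all tested genes these fits called, in the same order, 2.24% to 11.9%, 39.1% to 50.1%, 50.6% to 59.9%, 11% to 27.5% and 22.7% to 32.3%. The uncalled change of Mmp12 on ND ranged from -0.45 to 0.47 with 1 library left out and was reversed without ND_TKO replicate 1. With the replicate number as a block, 26 members were called in TKO on HFD, 5 in TKO on ND, 32 between diets in WT, 13 between diets in TKO and 22 for the interaction. Of all tested genes the block called, in the same order, 45.6%, 4.82%, 57.2%, 20.3% and 27.1%. That block ended the call of Plod2 on ND (adjusted p = 0.0601) and made that of Timp4 on ND (adjusted p = 0.0444), and between diets in TKO it ended those of Timp1 (0.0528) and Tgm2 (0.0584). Pairing the HFD_TKO and ND_TKO libraries alone called 19 members, of which 14 were called before, beside 26.6% of all tested genes. Loxl1 and Plod3 were among the 5 gained there, and Tgm2 was lost. In the other pairs of groups, same-numbered libraries correlated at -0.50 to 0.21. With 3 values for each pair of groups, these correlations cannot tell whether same-numbered libraries share more than a number. Levels at or near 3 reads (Mmp13 on ND, Mmp8, Mmp7) limit what depth can show. With 3 libraries a group, p-values weigh a group difference against the spread between these libraries. In the main fit that spread was estimated over all 4 groups with a mean-variance trend.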
